A study of Mus musculus with 145 samples.

Results

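The Skint genes are a mouse family of butyrophilin-like genes, and the 10 members examined here are Skint1, Skint2, Skint3, Skint4, Skint5, Skint6, Skint7, Skint8, Skint9 and Skint10. They were taken as a named list from a deposited table of 55416 gene identifiers, and all 10 were found and all 10 passed the filter on low counts, among 18677 genes tested. Their RNA was measured in dorsal skin of mice (Mus musculus) taken 0, 6, 24, 48, 72 or 96 h after a single exposure to a tanning canopy with 8 lamps, at 5, 10, 20 or 40 mJ/cm2, or after sham handling. The lamps gave 96.4% UVA and 3.6% UVB, per the design text. Each library was made from polyadenylated RNA of 1 animal, and the 145 libraries fill 25 groups of 5 and 5 groups of 4, the smaller being 20 mJ/cm2 at 48 h and the 4 irradiated groups at 96 h. Strain, sex and age of the animals were not given in the sources used here.

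Skint proteins are displayed by keratinocytes of the skin and by epithelial cells of the thymus. Skint1, the founding member, is needed in mice for the thymic maturation of dendritic epidermal T cells, the γδ T cells that reside between keratinocytes and watch for damaged neighbours. The tissue roles of the other members are less well defined, so they are described below by their position and levels rather than by function.

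The 10 genes lie side by side on mouse chromosome 4. In the GENCODE annotation on GRCm38 the order along the chromosome is Skint8, Skint7, Skint1, Skint4, Skint3, Skint9, Skint2, Skint10, Skint6 and Skint5, followed by their relative Skint11, over 2.33 Mb (chr4:111919392-114245028). Skint7 is the most compact, at 15.3 kb from first to last exon, and Skint6 and Skint5 are the most extended, at 482 and 522 kb. Skint5, Skint6, Skint9 and Skint10 are on the minus strand and the others on the plus strand.

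Promoter sequences are shown for Skint7 and its neighbour Skint8, which share reads and were both lower after 40 mJ/cm2 at 6 h, for Skint1, the member with a known function, and for the near-copies Skint5 and Skint6. Each is the RefSeq window on GRCm38.p6 running from 250 bases before to 50 after the annotated start, printed 5′ to 3′ on the gene's own strand. Capitals mark the TATA-box letters TATAAA on either strand, so that TTTATA is the same motif read on the other strand.
Skint7, chr4:111972677-111972976, plus strand: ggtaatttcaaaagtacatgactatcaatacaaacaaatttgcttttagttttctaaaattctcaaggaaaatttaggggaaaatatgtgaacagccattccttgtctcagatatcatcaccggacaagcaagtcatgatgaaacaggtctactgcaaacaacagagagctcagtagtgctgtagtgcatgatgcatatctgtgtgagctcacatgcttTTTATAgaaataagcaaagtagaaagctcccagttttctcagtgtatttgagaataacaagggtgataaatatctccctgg
Skint8, chr4:111919305-111919604, plus strand: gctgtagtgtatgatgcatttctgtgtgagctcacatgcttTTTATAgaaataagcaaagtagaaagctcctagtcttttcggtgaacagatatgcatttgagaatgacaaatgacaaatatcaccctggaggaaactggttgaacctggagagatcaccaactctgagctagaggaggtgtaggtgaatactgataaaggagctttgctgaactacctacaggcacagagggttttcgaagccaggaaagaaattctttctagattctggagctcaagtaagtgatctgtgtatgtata
Skint1, chr4:112006019-112006318, plus strand: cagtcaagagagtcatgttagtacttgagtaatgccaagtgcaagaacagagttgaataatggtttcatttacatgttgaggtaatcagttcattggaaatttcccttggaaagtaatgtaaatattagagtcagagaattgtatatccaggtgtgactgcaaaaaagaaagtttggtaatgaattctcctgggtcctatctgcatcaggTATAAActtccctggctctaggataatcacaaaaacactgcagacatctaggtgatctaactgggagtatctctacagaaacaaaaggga
Skint5, chr4:113999454-113999753, minus strand: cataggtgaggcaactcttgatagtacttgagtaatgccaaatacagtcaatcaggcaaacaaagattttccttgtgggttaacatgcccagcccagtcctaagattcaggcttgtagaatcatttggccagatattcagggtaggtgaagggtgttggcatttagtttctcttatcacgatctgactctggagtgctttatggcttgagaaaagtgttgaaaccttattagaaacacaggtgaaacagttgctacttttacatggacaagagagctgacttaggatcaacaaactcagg
Skint6, chr4:113286924-113287223, minus strand: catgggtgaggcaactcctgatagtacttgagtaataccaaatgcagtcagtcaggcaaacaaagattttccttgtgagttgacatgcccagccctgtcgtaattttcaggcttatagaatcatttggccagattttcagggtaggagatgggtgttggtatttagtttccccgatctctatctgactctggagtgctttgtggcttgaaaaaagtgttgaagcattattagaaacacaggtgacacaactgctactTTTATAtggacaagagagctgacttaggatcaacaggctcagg

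The Skint7 and Skint8 windows share an unbroken run of 51 identical bases that includes the marked motif, the longest such run among the members. Counted from the RefSeq start, with negative positions before it, the motif begins at -31 in Skint7 and at -209 in Skint8. The GENCODE start of Skint8, chr4:111919392, lies within the printed window and before the RefSeq start. The Skint8 position therefore depends on the annotation used. The motif begins at -40 in Skint1 and at 7 in Skint6. The Skint5 window has none, although the Skint5 and Skint6 windows are identical at 269 of 300 aligned bases (89.7%). The motif was present in 13.6% of all 32851 mouse promoter windows of this length. The AP-1 letters TGANTCA were searched on both strands too and occurred in none of the member windows, against 7.81% of all windows; a letter match is a description only.

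The likeness of some members extends into their transcripts and limits how far their counts can be separated. Of all 75-base windows of the annotated transcripts, 183 are shared between Skint7 and Skint8, which is 4.6% of those of Skint7 and 3.91% of those of Skint8. Skint5 and Skint6 share 48 windows, and the other 6 members share none within the family. Estimated counts that were not whole numbers, the trace left by dividing shared reads, made up 97.2% of the library values of Skint7, 96.6% of Skint8 and 90.3% of Skint5 and of Skint6, but at most 4.14% of those of any other member.

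The libraries held between 0.18 and 64.6 M counts, with a median of 11.1 M. The 2 libraries under 1 M are 10 mJ/cm2 replicate 5 at 6 h and 20 mJ/cm2 replicate 5 at 0 h, and neither belongs to the 40 mJ/cm2 or sham groups. Library titles end in R1_001 or in R1, a difference that the labels do not explain, and the ending was carried as a term in every main test. Levels are CPM, read counts scaled to the library's TMM-adjusted total, and are given per animal or as mean ± SD over animals. Log2 fold changes are irradiated over sham of the same time, given ± standard error (SE), and a gene was called at a Benjamini-Hochberg adjusted p under 0.05 over all genes tested in edgeR's quasi-likelihood F test.

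Per kilobase of exon, Skint9 had the highest median level over all libraries, 19.2 CPM per kb. Skint7 followed at 6.27 CPM per kb, then Skint3 at 4.72, Skint10 at 3.31, Skint1 at 2.92, Skint6 at 1.26, Skint4 at 1.17, Skint8 at 1.01, Skint5 at 0.98 and Skint2 at 0.699 CPM per kb. In 40 mJ/cm2 skin at 24 h, Skint9 (17.8 ± 10.1 CPM per kb) was also first, and Skint7 (2.2 ± 1.68 CPM per kb, SD, n = 5 each) stood behind Skint3 and Skint10. In sham skin at 24 h, Skint9 (20.8 ± 7.52 CPM per kb) and Skint7 (14.6 ± 5.47 CPM per kb, SD, n = 5 each) lay within each other's spread and above Skint3, whose mean was 5.33 CPM per kb. Skint6, Skint8, Skint4 and Skint5, at 1.43 to 1.74 CPM per kb, were not separated from each other beyond their spread in sham skin.

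Immediately after exposure, at 0 h, no member was called at any dose. At 40 mJ/cm2 and 0 h, 0 of 10 members were called by edgeR and by DESeq2. In edgeR 0 members had an unadjusted p under 0.05, and 0% of all genes were called lower. The log2 fold changes ran between -0.51 and 0.28. Skint7 stood at 16.9, 21.7, 38.1, 49.1 and 12.4 CPM in 40 mJ/cm2 skin, against 7.39, 21.1, 29.4, 29.2 and 24.9 CPM in sham skin, and the groups overlapped.

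By 6 h after 40 mJ/cm2, 4 members were lower than in sham skin, led by Skint7, and no member was higher. Skint7 fell to 10.1 ± 5.35 CPM in 40 mJ/cm2 skin, against 49.3 ± 18.4 CPM in sham skin (SD, n = 5 each). Skint4, Skint6 and Skint8 were 3.01-fold, 3.17-fold and 2.93-fold lower in 40 mJ/cm2 skin. The 4 calls compare with 2.75% of all genes called lower at that time. In whole skin, fewer cells of a type and less RNA per cell cannot be told apart.

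For Skint7 at 6 h, the 5 animals given 40 mJ/cm2 had 15.1, 4.59, 11.7, 14.9 and 4.31 CPM, against 29.6, 52.7, 44.1, 78.7 and 41.5 CPM in the 5 sham animals. Every irradiated animal was under every sham animal. The log2 fold change was -2.28 ± 0.45, a level 4.87-fold lower (adjusted p = 0.00356).

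Skint4, the next called member along the chromosome, had 2.72, 1.7, 1.79, 4.38 and 3.83 CPM in 40 mJ/cm2 skin at 6 h, against 5.76, 8.34, 9.03, 11.7 and 8.39 CPM in sham skin. These groups did not overlap either, and the log2 fold change was -1.59 ± 0.33 (adjusted p = 0.00503). Members with such a separation numbered 2, Skint4 and Skint7, while 4.45% of all genes had every irradiated library under every sham library.

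Skint6 stood at 2.38, 2.16, 2.24, 4.99 and 2.3 CPM in 40 mJ/cm2 skin at 6 h, against 4.29, 8.34, 7.85, 14.1 and 10.9 CPM in sham skin. Skint8 stood at 0.681, 1.06, 2.02, 4.89 and 2.4 CPM in 40 mJ/cm2 skin, against 4.42, 6.25, 5.76, 9.63 and 6.1 CPM in sham skin. In both genes only 40 mJ/cm2 replicate 4 reached into the sham range. The log2 fold changes were -1.66 ± 0.43 for Skint6 (adjusted p = 0.024) and -1.55 ± 0.40 for Skint8 (adjusted p = 0.0213). The Skint6 call was lost in 5 of 10 fits without 1 library, which were those without sham replicates 4 or 5 or 40 mJ/cm2 replicates 2, 3 or 5, with adjusted p up to 0.0877. The Skint8 call was lost in 4 of 10, without sham replicate 4 or 40 mJ/cm2 replicates 1, 2 or 5, with adjusted p up to 0.0878. When Skint5 and Skint6 counts were summed, the log2 fold change was -1.24 (adjusted p = 0.107), so the sum of the pair was not called; Skint5 alone had -0.87 ± 0.46 (adjusted p = 0.338).

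The remaining members at 6 h had negative log2 fold changes that did not pass the threshold. Skint10 had -1.62 ± 0.53 (adjusted p = 0.0818), Skint9 -1.16 ± 0.52 (adjusted p = 0.236) and Skint2 -0.97 ± 0.45 (adjusted p = 0.262). Skint1 had -0.87 ± 0.32 (adjusted p = 0.13). Skint3 had the smallest value, -0.41 ± 0.38 (adjusted p = 0.652). The replicate 4 animal of the 40 mJ/cm2 group was high in several members, and without it Skint1 and Skint10 were called as well, with -1.20 (adjusted p = 0.0295) and -2.09 (adjusted p = 0.0388).

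**Figure D1:**
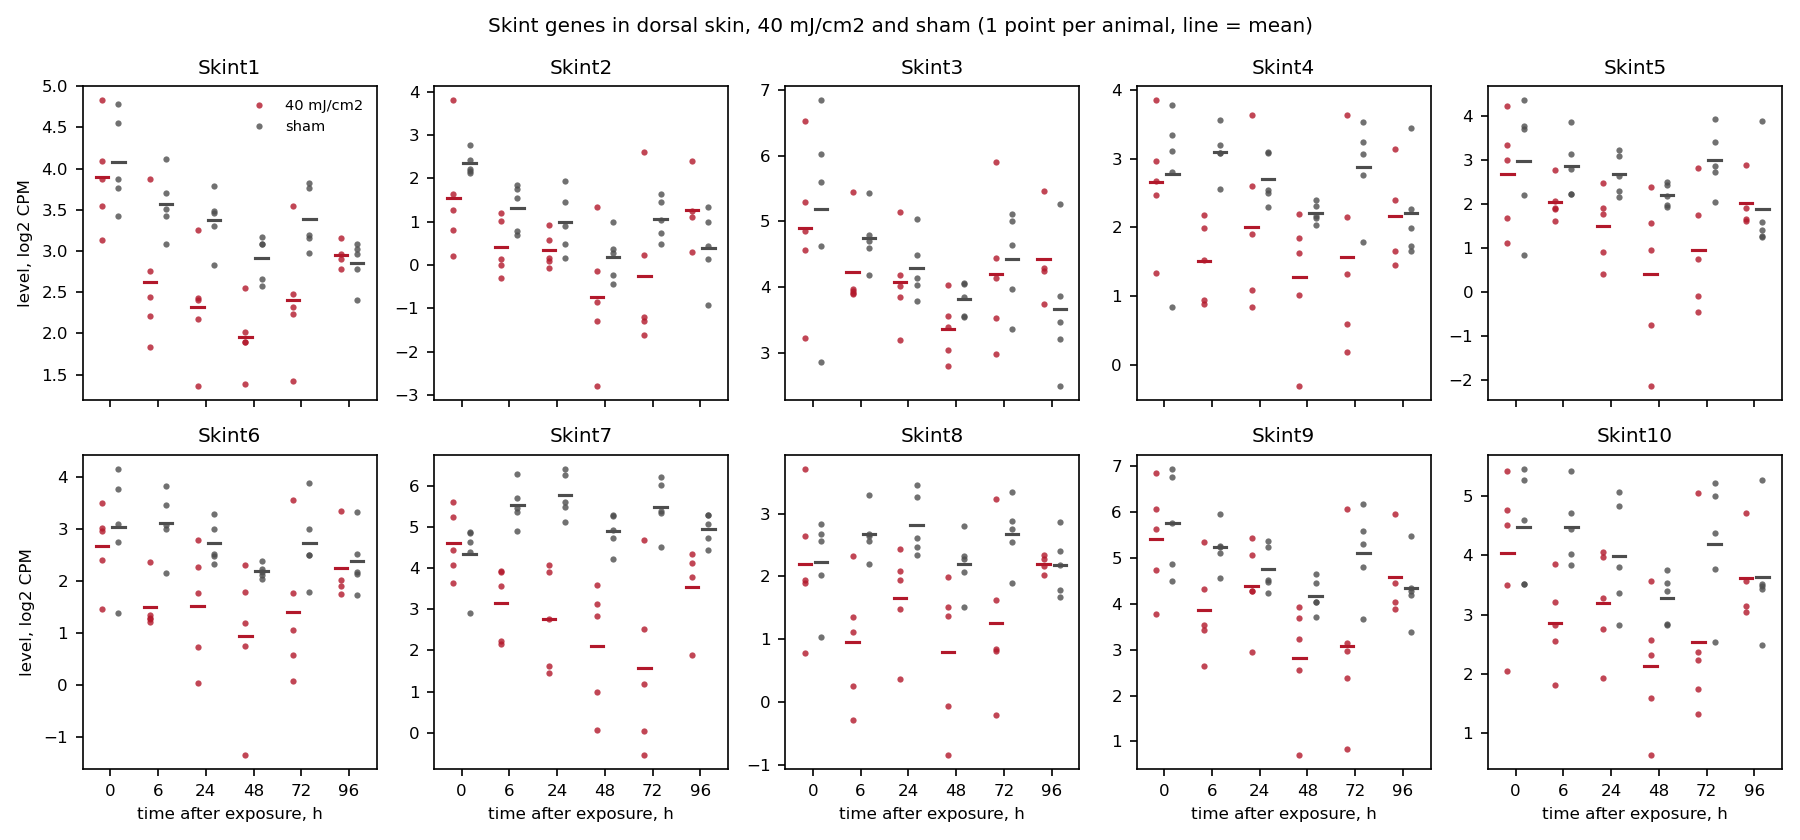
Level of each Skint gene in log2 CPM (prior count 2) by time after exposure in hours, with animals given 40 mJ/cm2 (red) to the left of sham animals (grey); each point is 1 animal and each line a group mean. Skint7 separates without overlap at 6, 24, 48 and 96 h, while the Skint3 groups overlap at every time.

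At 24 h Skint7 was 6.99-fold lower after 40 mJ/cm2 and Skint1 1.99-fold lower, and the other members were not called. The 2 calls are set against 1.26% of all genes called lower. Skint7 had 2.95, 14.9, 16.9, 6.66 and 2.58 CPM in 40 mJ/cm2 skin, against 48.9, 44.9, 77, 85.2 and 34.7 CPM in sham skin. Again no irradiated animal reached the sham range; Skint7 was the single member of which this was true, against 2.25% of all genes. Its log2 fold change was -2.81 ± 0.53 (adjusted p = 0.00446).

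Skint1, the gene on which epidermal T cell maturation depends, had 5.16, 4.38, 5.24, 9.34 and 2.42 CPM in 40 mJ/cm2 skin at 24 h, against 6.96, 10.9, 9.74, 11.1 and 13.7 CPM in sham skin. All but replicate 4 of the irradiated animals were under the sham range. The log2 fold change was -1 ± 0.25 (adjusted p = 0.0337). The call held only in the fits without sham replicate 1 or without 40 mJ/cm2 replicate 4 and was lost in 8 of 10 fits without 1 library, with adjusted p up to 0.0871.

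Skint8 at 24 h had a log2 fold change of -1.13 ± 0.36 (adjusted p = 0.0872), and Skint5 had -1.12 ± 0.43 (adjusted p = 0.169). Skint6, Skint10, Skint2 and Skint4 lay between -0.98 and -0.42, with adjusted p between 0.306 and 0.696. Skint9 (-0.23 ± 0.44) and Skint3 (-0.15 ± 0.39) were nearest to no change. The median over the 10 members was -0.91, against 0.05 over all genes.

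At 48 h the same pair, Skint7 and Skint1, was called lower after 40 mJ/cm2, against 3.76% of all genes. Skint7 had 11.9, 8.55, 1.82, 6.98 and 0.895 CPM in 40 mJ/cm2 skin, against 38.6, 18.8, 30.2, 26.8 and 39.1 CPM in sham skin, a log2 fold change of -2.51 ± 0.45 (adjusted p = 0.000972). Skint1 had 5.72, 3.92, 2.48, 3.59 and 3.58 CPM in 40 mJ/cm2 skin, against 5.82, 8.36, 6.16, 8.33 and 8.88 CPM in sham skin, a log2 fold change of -0.99 ± 0.31 (adjusted p = 0.0491). The groups did not overlap in either gene, as in 6.11% of all genes. The Skint1 value lay just under the threshold, and its call was kept only without 40 mJ/cm2 replicate 1, being lost in the other 9 of 10 fits without 1 library.

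Skint8 had -1.26 ± 0.40 at 48 h, which just missed the threshold at an adjusted p of 0.053, and DESeq2 called it (adjusted p = 0.017). Skint9, the member of highest level per length, had -1.22 ± 0.43 (adjusted p = 0.0961). Skint5, Skint10, Skint6, Skint4 and Skint2 had log2 fold changes between -1.30 and -0.75, and Skint3 had -0.47 ± 0.29 (adjusted p = 0.417). In 40 mJ/cm2 replicate 3 at 48 h, Skint2 was at 0 CPM and Skint5 at 0.0828 CPM, the lowest of that group.

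At 72 h Skint7 was low in most, but not all, of the irradiated animals. It had 0.874, 2.14, 25.6, 0.544 and 5.58 CPM in 40 mJ/cm2 skin, against 42.2, 64.8, 75, 41 and 22.7 CPM in sham skin. Of the 40 mJ/cm2 animals, replicate 3 lay within the sham range and the other 4 were below it. The log2 fold change was the largest of any time, -2.94 ± 0.86, but was not called (adjusted p = 0.109). Without 40 mJ/cm2 replicate 3 it was -4.45 (adjusted p = 0.00724), and DESeq2 called it with every library (adjusted p = 0.00915). With edgeR 0 of 10 members were called at 72 h, against 0.22% of all genes called lower, and 2 members had an unadjusted p under 0.05.

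The same animal was high in other members. In Skint10 replicate 3 had 33.1 CPM at 72 h, and the other 4 animals given 40 mJ/cm2 had 2.36 to 4.99 CPM, against 5.62 to 37.3 CPM in sham skin. In Skint9 it had 66.7 CPM, and the other 4 had 1.63 to 8.67 CPM, against 12.6 to 72.1 CPM in sham skin. Its mean level of stressed keratinocyte markers (Krt6a, Krt16, Sprr1b and others) was 4.12 log2 CPM, and that of the other animals given 40 mJ/cm2 was 3.24 to 8.89 log2 CPM, against 1.14 to 3.34 log2 CPM in sham skin. Its level of basal keratinocyte markers was 7.41 log2 CPM, and that of the other animals given 40 mJ/cm2 was 8.2 to 8.99 log2 CPM, against 7.02 to 8.89 log2 CPM in sham skin. Replicate 3 also had the highest mean level of the Skint genes in sham skin (4.19 log2 CPM), in 10 mJ/cm2 skin (5.21 log2 CPM) and in 20 mJ/cm2 skin (4.85 log2 CPM) at 72 h, though not in 5 mJ/cm2 skin, and the lowest basal marker level in all 5 groups. The part of these levels in the result was not tested.

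By 96 h the members no longer leaned to one side. The median log2 fold change at 40 mJ/cm2 was -0.01, against -0.02 over all genes, and 5 of 10 members had a negative value. No member was called by edgeR or DESeq2, edgeR called 0% of all genes lower, and 1 member, Skint7, had an unadjusted p under 0.05. Skint7 had 17.5, 13.6, 20.1 and 3.55 CPM in the 4 animals given 40 mJ/cm2, against 33.5, 39.6, 26.5, 39.2 and 21.6 CPM in sham animals. These groups did not overlap, as in 1.19% of all genes, while the log2 fold change of -1.23 ± 0.55 had an adjusted p of 1.

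**Figure D2:**
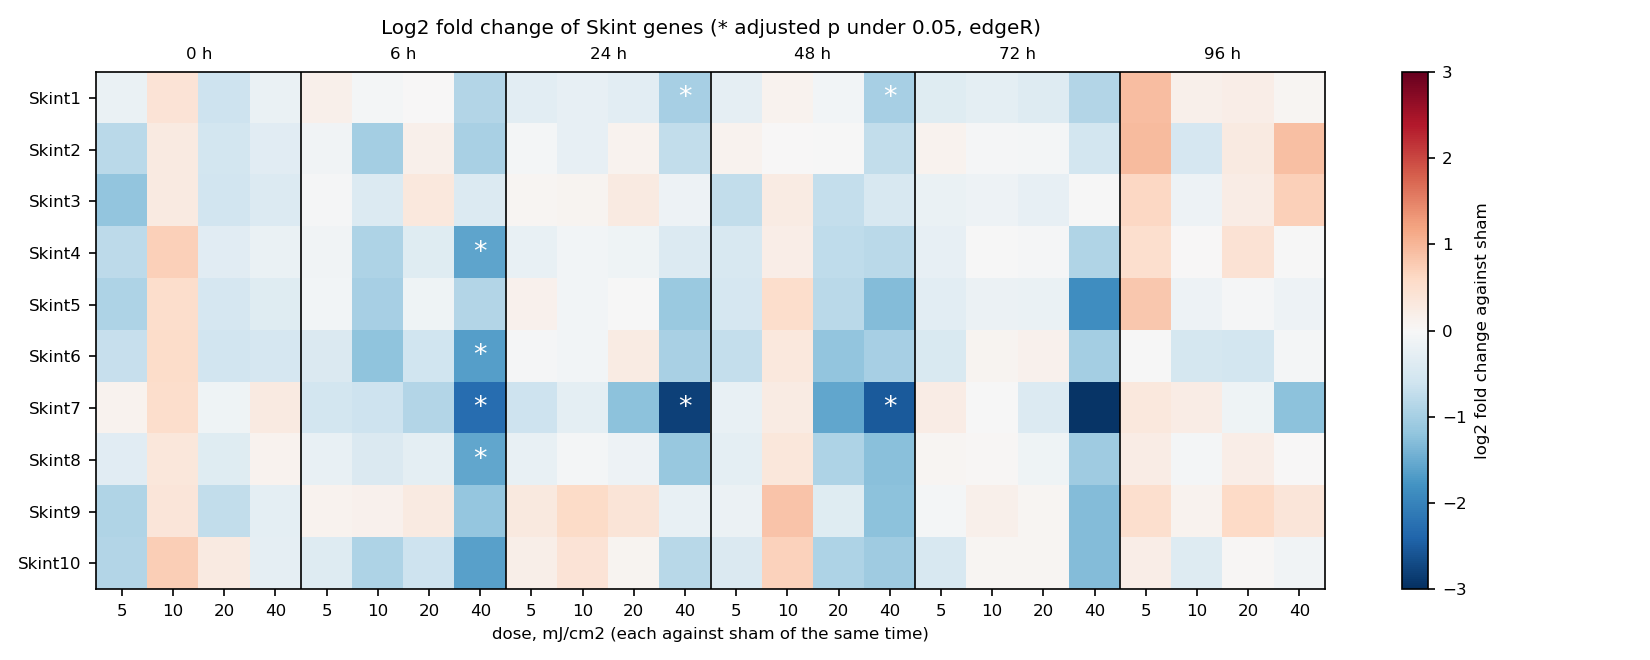
Log2 fold change of each Skint gene (rows) for each dose in mJ/cm2 against sham of the same time (columns, grouped by time); blue is lower than sham and a white star marks an adjusted p under 0.05 in edgeR. All 8 stars are in 40 mJ/cm2 columns, at 6, 24 and 48 h, and 3 of them are in the Skint7 row.

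Whether the effect of 40 mJ/cm2 was itself different at different times was tested directly. Between 6 and 48 h the count was 0: 0 of 10 were called by edgeR and by DESeq2, 0 had an unadjusted p under 0.05 in edgeR, and edgeR called 3.32% of all genes. Between 48 and 96 h all 10 differences were positive, meaning a less negative or a positive effect at 96 h, with a median of 1.32 against -0.02 over all genes. None was called by edgeR, against 0.883% of all genes, while 4 members had an unadjusted p under 0.05 and DESeq2 called 3, Skint1, Skint3 and Skint9. The smallest p was that of Skint1, whose difference was 1.12 ± 0.28 (adjusted p = 0.058). For Skint7 it was 1.35 ± 0.66 (adjusted p = 0.262).

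At the doses below 40 mJ/cm2 no member was called at any time by edgeR. At 5 and 10 mJ/cm2, edgeR called 0% of all genes lower at any time, and DESeq2 called no member. An unadjusted p under 0.05 was found in 3 members at 10 mJ/cm2 and 6 h, in 1 at 5 mJ/cm2 and 48 h and in 1 at 5 mJ/cm2 and 96 h. The last of these was Skint1, with 12.9, 11, 17.7 and 13.5 CPM in 5 mJ/cm2 skin at 96 h, against 7.65, 8.05, 5.14, 8.32 and 6.74 CPM in sham skin. It was higher in every irradiated animal than in any sham animal, as were 1.44% of all genes, and its log2 fold change was 0.92 ± 0.36 (adjusted p = 0.503). Skint4 at 10 mJ/cm2 and 6 h was lower without overlap, as in 2.12% of all genes, with 3.56 ± 2.02 CPM in 10 mJ/cm2 skin and 8.64 ± 2.12 CPM in sham skin (SD, n = 5 each) and an adjusted p of 0.554. Of these irradiated libraries, replicate 5 held only 0.18 M counts and none for Skint4, and the other 4 had 4.06 to 4.97 CPM.

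At 20 mJ/cm2 most low values fell at 48 h, where no member was called by edgeR, against 0.0535% of all genes called lower. The same share was 0.273% at 6 h, 0.00535% at 24 h and 0% at the other times, and no member was called there by either tool. An unadjusted p under 0.05 was found in 6 members at 48 h, in 1 at 6 h and in 1 at 24 h. Skint7 had 15.5, 10.6, 9.16 and 6.12 CPM in 20 mJ/cm2 skin at 48 h, against 38.6, 18.8, 30.2, 26.8 and 39.1 CPM in sham skin. The groups did not overlap, and the log2 fold change was -1.57 ± 0.45 (adjusted p = 0.0829). DESeq2 called Skint7 there, and so did edgeR without 20 mJ/cm2 replicate 1 (adjusted p = 0.046). Skint4 and Skint6 were also lower without overlap, which makes 3 of 10 members, against 2.13% of all genes.

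Among the irradiated animals alone, Skint7 declined with dose. The slope per doubling of dose was taken over the groups from 5 to 40 mJ/cm2. Sham libraries had no weight in the slope but were part of the fit, including its spread and title-ending term. The slope was -0.55 ± 0.14 at 6 h (adjusted p = 0.03), -0.75 ± 0.16 at 24 h (adjusted p = 0.0173) and -0.87 ± 0.14 at 48 h (adjusted p = 0.000392). At 48 h the mean of Skint7 was 28.2 ± 12.9 CPM at 5 mJ/cm2, 35.9 ± 15.3 CPM at 10, 10.4 ± 3.92 CPM at 20 and 6.03 ± 4.64 CPM at 40 mJ/cm2 (SD, n = 4 at 20 mJ/cm2 and 5 at the others). All 9 animals given 20 or 40 mJ/cm2 were below every animal given 5 or 10 mJ/cm2 at that time. The share of all genes with this split was not computed, so it is a description only. The 48 h slope kept its call in all 19 fits without 1 library, the 24 h slope lost it in 2 of 20, without 5 mJ/cm2 replicate 3 or 40 mJ/cm2 replicate 5, and the 6 h slope lost it in 6 of 20.

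Slopes of 2 other members were called, each at 1 time. Skint4 had -0.39 ± 0.10 at 6 h (adjusted p = 0.0391) and Skint8 had -0.41 ± 0.12 at 48 h (adjusted p = 0.0433). Both were marginal: the Skint4 slope lost its call in 13 of 20 fits without 1 library and the Skint8 slope in 10 of 19. The 2 members called at 6 h compare with 1.77% of all genes with a called negative slope, the 1 member called at 24 h with 0.557% and the 2 called at 48 h with 3.53%. At 72 h the share of all genes was 0.0375%, and at 0 and 96 h it was 0%. At 72 h the Skint7 slope was -0.99 ± 0.28 (adjusted p = 0.141), and without 40 mJ/cm2 replicate 3 it was -1.43 (adjusted p = 0.0102). At 0, 72 and 96 h edgeR called no slope of a member, with an unadjusted p under 0.05 in 0, 1 and 1 members, and DESeq2 called 1 at 72 h, Skint7.

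**Figure D3:**
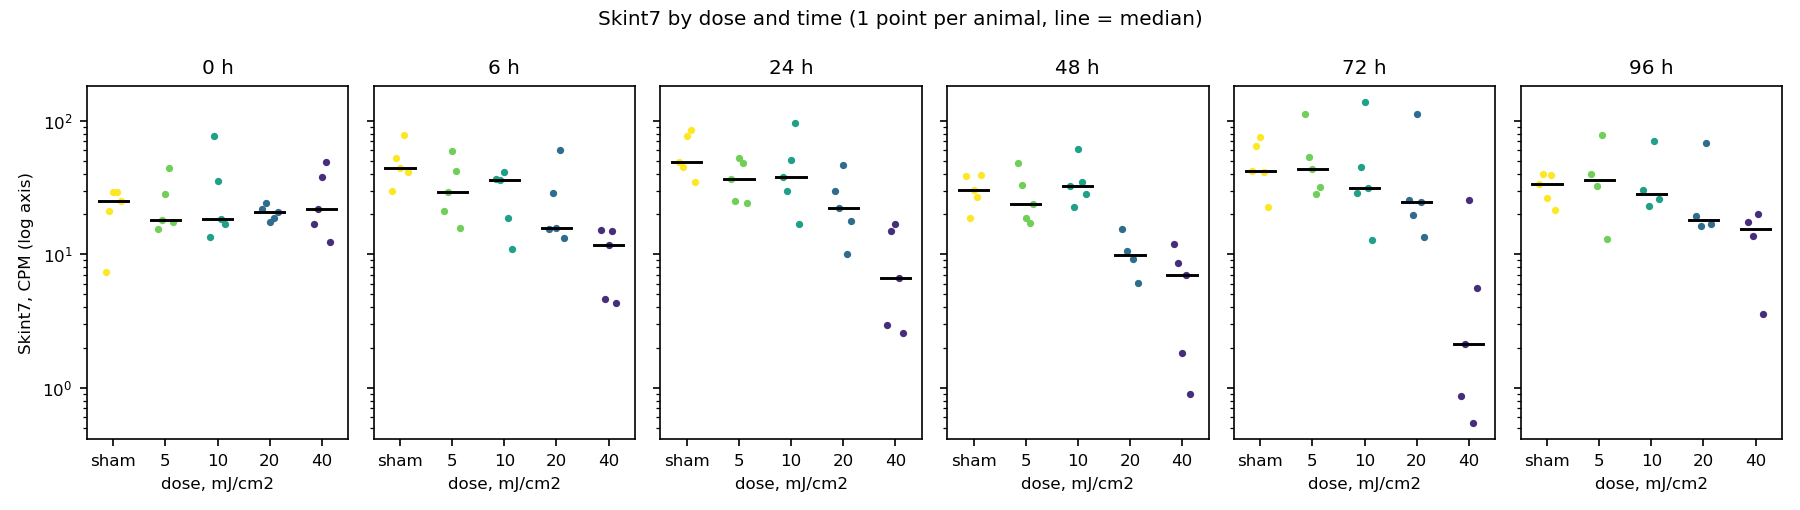
Skint7 in CPM (log axis) against dose in mJ/cm2, from sham to 40, with a panel for each time after exposure; each point is 1 animal and each line a group median. From 6 to 96 h the lowest median is at 40 mJ/cm2, though at 96 h it is near that at 20 mJ/cm2 (15.6 and 18 CPM). At 72 h a single 40 mJ/cm2 animal at 25.6 CPM stands above the other 4.

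The tests of Skint7 were repeated with its counts added to those of Skint8, because the pair shares reads. For the sum at 40 mJ/cm2 the log2 fold change was -2.17 at 6 h (adjusted p = 0.00299), -2.48 at 24 h (adjusted p = 0.00518) and -2.28 at 48 h (adjusted p = 0.00132), all called as for Skint7 alone. Skint7 makes up most of the sum, with means of 49.3 CPM and 6.43 CPM for Skint8 in sham skin at 6 h. The sum therefore says little about Skint8. How far shared reads moved the Skint8 values, including its call at 6 h and its slope at 48 h, was not tested. Within libraries of a single title ending the direction was the same, with fewer animals. At 6 h the value was -2.05 in R1_001 libraries, 3 against 3 (adjusted p = 0.0218), and -2.65 in R1 libraries, 2 against 2 (adjusted p = 1). At 24 h it was -2.29 in R1_001 libraries, 3 against 3 (adjusted p = 0.0773), and -3.73 in R1 libraries, 2 against 2 (adjusted p = 1). At 48 h it was -1.48 in R1_001 libraries, 2 against 2 (adjusted p = 0.415), and -3.28 in R1 libraries, 3 against 3 (adjusted p = 0.00392).

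The level of Skint7 was also set against the rest of its family within each library. On the log2 CPM scale, Skint7 minus the mean of the other 9 members was 0.94 ± 0.76 in 40 mJ/cm2 skin and 2.10 ± 0.19 in sham skin at 6 h (SD, n = 5 each). At 24 h it was 0.43 ± 0.95 in 40 mJ/cm2 skin and 2.63 ± 0.22 in sham skin. At 72 h it was -0.33 ± 0.92 in 40 mJ/cm2 skin and 2.23 ± 0.09 in sham skin. At 0 h it was 1.28 ± 0.45 in 40 mJ/cm2 skin and 0.69 ± 0.53 in sham skin, so sham animals at 0 h also had a lower mean than sham animals at any later time. This measure was chosen after its values were seen and is given without a test.

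**Figure D4:**
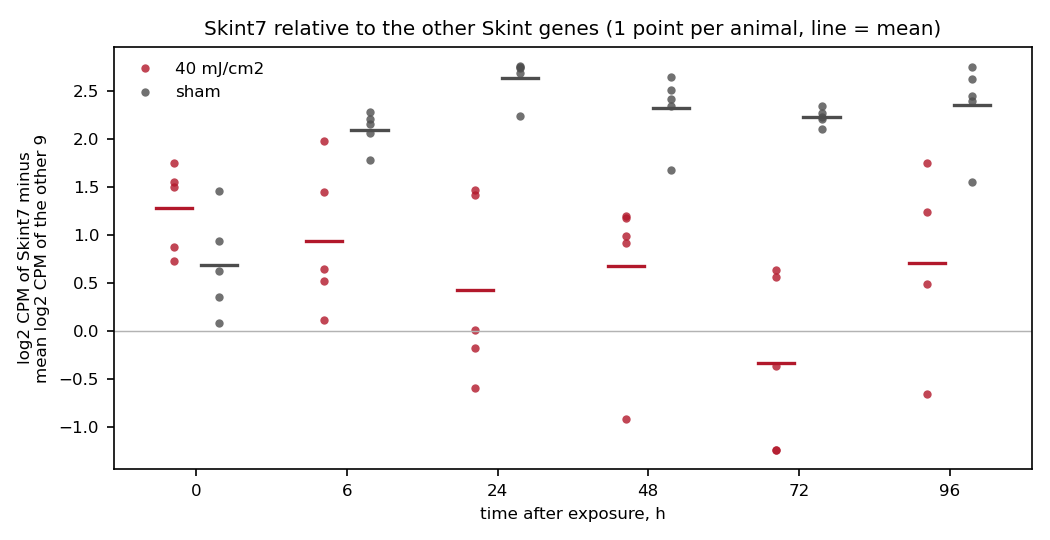
Log2 CPM of Skint7 minus the mean log2 CPM of the other 9 Skint genes, by time after exposure in hours, with 40 mJ/cm2 animals (red) left of sham animals (grey); points are animals and lines are means. At 24, 48 and 72 h every 40 mJ/cm2 animal is below every sham animal, and at 0 h the groups overlap.

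Levels in sham skin were not flat over the 6 times. An F test over the 30 sham libraries called 2 members, Skint2 (adjusted p = 0.0036) and Skint1 (adjusted p = 0.00923), against 4.29% of all genes. Skint2 was 5.00 ± 1.03 CPM at 0 h, 2.5 ± 0.929 at 6 h, 2.04 ± 1.1 at 24 h, 1.07 ± 0.493 at 48 h, 2.06 ± 0.714 at 72 h and 1.35 ± 0.773 CPM at 96 h. Skint1 was 17.9 ± 7.18 CPM at 0 h, 12.1 ± 3.34 at 6 h, 10.5 ± 2.45 at 24 h, 7.51 ± 1.41 at 48 h, 10.6 ± 2.94 at 72 h and 7.18 ± 1.28 CPM at 96 h (SD, n = 5 at each time for both genes). Both were highest at 0 h. Skint7 was not called (adjusted p = 0.0627), with 22.4 ± 9.06 CPM at 0 h, 49.3 ± 18.4 at 6 h, 58.2 ± 21.8 at 24 h, 30.7 ± 8.52 at 48 h, 49.1 ± 20.8 at 72 h and 32.1 ± 7.93 CPM at 96 h. All 3 genes had lower means at 48 and 96 h than at 72 h.

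Over the same times the makeup of the sham samples moved as well. The summed level of 13 suprabasal keratinocyte markers was 13200 to 28600 CPM at 0 h and 6360 to 9440 CPM at 6 h, and that of 14 skeletal muscle markers was 18300 to 31200 CPM at 0 h and 33100 to 60700 CPM at 6 h. No marker of either list was at 0 throughout a group. With the muscle level as a covariate, Skint7 was the 1 member called over sham times, and Skint1 and Skint2 were not. Each dose was compared only with sham animals of its own time.

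The members varied together from animal to animal. Across the 30 group means of log2 CPM the correlation between members ran from r = 0.16 for Skint3 and Skint7 to r = 0.96 for Skint6 and Skint10. These means include the 2 libraries under 1 M counts. In 10 mJ/cm2 replicate 5 at 6 h, Skint2, Skint4, Skint5, Skint6, Skint8 and Skint10 had no counts (-2.79 log2 CPM). Skint3 and Skint7 stood at 5.45 and 3.46 log2 CPM in that library. How far such libraries moved these correlations was not tested. After removing group means, over 143 libraries of at least 1 M counts, the correlation ran from r = 0.46 for Skint1 and Skint7 to r = 0.88 for Skint5 and Skint6 and for Skint9 and Skint10. Within groups Skint3 and Skint7 correlated at r = 0.66. These values are descriptions: the points share dose and time groups, libraries and depth, and the Skint5 and Skint6 counts share reads.

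Skint3 had the value nearest to 0 at 6, 24, 48 and 72 h. Its log2 fold change at 40 mJ/cm2 was -0.41 ± 0.38 at 6 h, -0.15 ± 0.39 at 24 h, -0.47 ± 0.29 at 48 h and -0.01 ± 0.64 at 72 h, and its slope over dose lay between -0.04 and 0.15 at all 6 times. At 48 h it had 16.2, 11.8, 6.87, 10.4 and 8.14 CPM in 40 mJ/cm2 skin, against 16.7, 11.6, 14.2, 11.7 and 16.4 CPM in sham skin, and the groups overlapped. The 95% interval of its log2 fold change was -1.17 to 0.34 at 6 h, -0.90 to 0.61 at 24 h and -1.04 to 0.10 at 48 h. The value of Skint7 lay outside it at all 3 times, and that of Skint1 outside it at 24 h but inside it at 6 and 48 h. The difference between Skint3 and Skint7 was not tested.

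Some markers of the T cells with which Skint1 is linked were lower after 40 mJ/cm2. Of 22 epidermal T cell markers, 19 were in the table by symbol and were tested. Those called lower numbered 2 at 6 h, 4 at 24 h, 5 at 48 h and 2 at 72 h, and none was called higher at any time. The shares of all genes called lower at these times were 2.75%, 1.26%, 3.76% and 0.22%. At 0 and 96 h edgeR called none of the markers, with an unadjusted p under 0.05 in 1 and 4. The median log2 fold change of the 19 genes was -0.45 at 6 h, -0.78 at 24 h, -0.75 at 48 h, -0.82 at 72 h and -0.28 at 96 h.

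Cd3g and Cd247 encode signalling chains of the T cell receptor complex. Cd247 was called at 6 h (-1.11 ± 0.27). Cd3g was called at 6 h (-1.27 ± 0.27), 24 h (-1.27 ± 0.29), 48 h (-1.48 ± 0.24) and 72 h (-1.79 ± 0.34). Trdc, the constant region of the δ receptor chain, was called at 24 h (-1.36 ± 0.29) and 48 h (-1.50 ± 0.28). Trdv4, a δ variable segment carried by dendritic epidermal T cells, was called at 48 h (-1.73 ± 0.44), as was the chemokine Xcl1 (-1.71 ± 0.44).

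At 24 h the summed level of the 19 markers was 48.1 to 86.6 CPM in 40 mJ/cm2 skin and 94.7 to 120 CPM in sham skin. The groups did not overlap, as in 2.25% of all single genes. At 48 h the summed level was 57.1 to 82 CPM in 40 mJ/cm2 skin and 74 to 123 CPM in sham skin. No marker was at 0 throughout a group. Of 9 αβ T cell markers tested, such as Trac, Cd4 and Cd8a, 0 were called by edgeR at 40 mJ/cm2 at any time, with an unadjusted p under 0.05 in 1 at 0 h, 1 at 96 h and 0 between. Their median log2 fold change lay between -0.44 at 0 h and 0.44 at 96 h. Whether the T cell and Skint changes are linked was not tested.

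**Figure D5:**
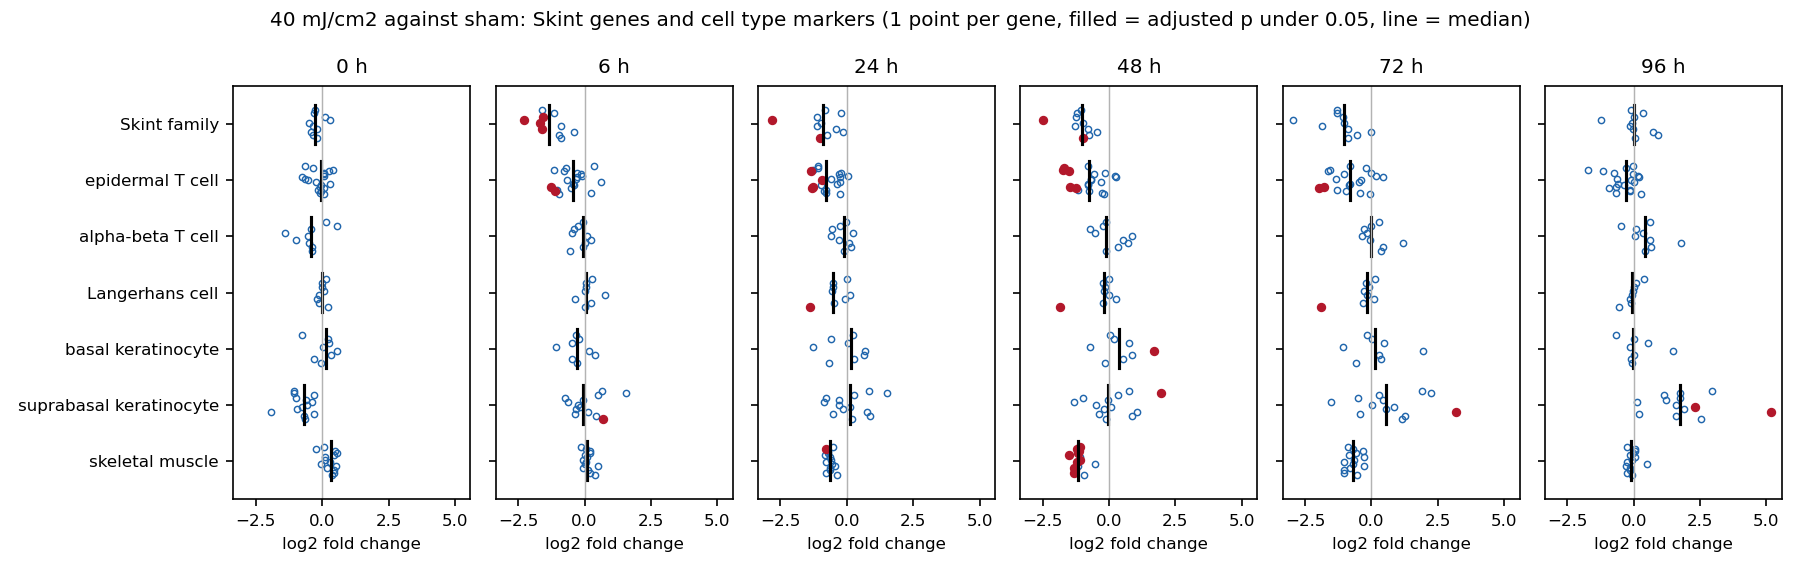
Log2 fold change at 40 mJ/cm2 against sham for the Skint genes and for marker lists of skin cell types, with a panel for each time; each point is 1 gene, filled red points have an adjusted p under 0.05 and black lines are list medians. At 48 h the Skint median is -1.03, the epidermal T cell median -0.75 and the αβ T cell median -0.1.

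Keratinocytes also signal to epidermal T cells through ligands and cytokines. Of 12 such genes tested, edgeR called 0 at 6, 24, 72 and 96 h, with an unadjusted p under 0.05 in 2 or 3 at each. At 48 h Raet1d and Ulbp1, ligands of the activating receptor NKG2D, rose by log2 fold changes of 3.26 ± 0.92 and 1.21 ± 0.31, and the skin chemokine Ccl27a fell, with -1.19 ± 0.35. Of 11 other butyrophilin family genes, 4 passed the filter. At 48 h Btnl2 was called higher (1.79 ± 0.47) and Btnl9 lower (-1.21 ± 0.31), and Skint11, the neighbouring gene, had values between -1.02 and 0.06 over the 6 times and was not called. Of all genes, 3.76% were called lower at 48 h. The share called higher is not given here, so the calls of these 2 lists are descriptions only.

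General keratinocyte markers were examined beside the Skint genes. Of 8 basal markers, Krt14 was called higher at 48 h (1.70 ± 0.39) and no other was called at 40 mJ/cm2. Of 13 suprabasal markers, 1 was called higher at each of 6, 48 and 72 h and 2 at 96 h, none lower. Of 10 stressed keratinocyte markers, 7, 7, 9, 9 and 2 were called higher at 6, 24, 48, 72 and 96 h. The shares of all genes called higher are not given here, so these counts are descriptions only. With the mean basal and suprabasal marker level of each library as a covariate, the Skint7 value was -2.29 at 6 h (adjusted p = 0.00348), -2.99 at 24 h (adjusted p = 0.00015) and -2.47 at 48 h (adjusted p = 0.00126). This level includes Krt14 and other markers called after exposure, and the part of keratinocyte content in the Skint7 result was not tested.

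Skeletal muscle, which lies beneath the skin and can be taken with it, moved with the groups at 48 h. Of 14 muscle markers, 10 were called lower then and 1 at 24 h, and their summed level at 48 h was 19400 to 33900 CPM in 40 mJ/cm2 skin and 43500 to 68800 CPM in sham skin. With the muscle level as a covariate the Skint7 value at 48 h was -2.99 (adjusted p = 0.00194), and at 24 h it was -3.85 (adjusted p = 0.00147). For Skint1 at 48 h it was -0.98 (adjusted p = 0.0893). Of 8 Langerhans cell markers, Cd207, the gene of langerin, was called lower at 24, 48 and 72 h, with -1.40 ± 0.34, -1.87 ± 0.34 and -1.90 ± 0.33, and no other was called. The shares of all genes called lower were 1.26% at 24 h, 3.76% at 48 h and 0.22% at 72 h.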

How the data were processed

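RNA was measured in 145 libraries of dorsal skin, 1 per animal. The authors deposited expected counts per gene; per the submitters' processing notes the tools were bcl2fastq 2.20.422, fastp 0.23.0, STAR 2.7.10a and DESeq2 1.36.1 on build GRCm39, and per the labels' protocols the kit was stranded and reads were single 75-base reads. No source used here names the counting program or its use of strand, so reads of near-copies and of overlapping genes may be divided or shared. Symbols and exon lengths came from GENCODE vM21 on GRCm38, which gave a symbol to 52083 of 55416 identifiers; promoters came from RefSeq.

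The counts, of which 12.6% were not whole, were rounded and tested in edgeR 4.0.16 (R 4.3.3; TMM, filterByExpr over the 30 groups, 18677 genes kept). Each time had its own fit, of all 5 dose groups plus a term for the title ending; other fits compared the 40 mJ/cm2 effect between times and sham animals over times. SE values follow from the fold change and F. Alternatives were DESeq2 1.42.0, other size factors, no filter, no ending term, 1 fit of all libraries, marker covariates, single endings and leaving out each library; summing near-copies and a block by place in the group were chosen after seeing the data. No 2 replicates were near-identical: the highest correlation was 0.982 over 280 pairs. The test was tried on simulated data.

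The members and gene lists were chosen with earlier results of these data known. All 10 members are named in each main comparison, and at most 4 called genes of any other list. Genes most like the family were the 8 with the highest correlation with its mean over 30 groups. The intervals and p-values cover the spread between these animals only. Replicate numbers follow accession order; the labels do not say that they pair animals.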

Additional observations from a re-analysis of the deposited data

Results flagged for a closer look

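Within groups of 4 or 5 animals, 120 combinations of member and group were examined for a library far from the others, and 6 were found, as many as the 6 that chance gives at 1 in 20. In 40 mJ/cm2 skin at 6 h, replicate 4 was far above the others in Skint3, at 43.5 CPM against 14.8 to 15.5 CPM, and in Skint6, at 4.99 CPM against 2.16 to 2.38 CPM. In 40 mJ/cm2 skin at 72 h, replicate 3 had 33.1 CPM of Skint10 and the other animals 2.36 to 4.99 CPM. In 40 mJ/cm2 skin at 96 h, replicate 1 had 10 CPM of Skint6 and the other animals 3.22 to 3.92 CPM. In sham skin at 96 h, replicate 2 had 14.7 CPM of Skint5 and the other animals 2.21 to 2.87 CPM. In sham skin at 0 h, replicate 1 was the low one, with 7.39 CPM of Skint7 and 21.1 to 29.4 CPM in the other animals.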

How the results depend on the processing

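Direction held in every alternative for each called member value; the causes of the moved counts below were not tested. Counts are of the 10 members called. At 40 mJ/cm2 against sham, the count at 6 h (4) was 0 in R1 libraries alone. The count at 24 h (2) was 1 with no filter or with all libraries in 1 fit, 5 with the muscle covariate, 4 with the keratinocyte covariate and 0 in either ending alone. The count at 48 h (2) was 4 with DESeq2 or the muscle covariate, 6 with no filter, 1 with DESeq2 size factors in edgeR, in R1 libraries or in 1 fit, and 0 in R1_001 libraries. The count at 72 h (0) was 1 with DESeq2, in R1_001 libraries and in 1 fit. At 20 mJ/cm2, the count at 24 h (0) was 1 with the keratinocyte covariate, and at 48 h (0) it was 1 with DESeq2, with no filter or with the muscle covariate. Slope counts were 1 without the ending term, 4 with the muscle covariate and 0 in 1 fit at 6 h (2); 3 with the keratinocyte covariate at 24 h (1); 4 with no filter or the muscle covariate and 1 without the ending term or in 1 fit at 48 h (2); and 1 with DESeq2 or in 1 fit at 72 h (0). The difference between 48 and 96 h (0) was called for 3 members with DESeq2 and 4 with no filter. Over sham times (2) the count was 5 with DESeq2 or no filter, 1 with the muscle covariate and 6 with the keratinocyte covariate.

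Without 1 library at a time, counts at 40 mJ/cm2 ran from 2 to 6 at 6 h, 1 to 3 at 24 h, 1 to 3 at 48 h and 0 to 1 at 72 h, and at 20 mJ/cm2 and 48 h from 0 to 1. Slope counts ran from 0 to 4 at 6 h, 0 to 1 at 24 h, 1 to 4 at 48 h and 0 to 1 at 72 h. The difference between 48 and 96 h ran from 0 to 2 and sham times from 2 to 4. Skint7 at 40 mJ/cm2 kept its call in all 10 such fits at 6 h (-2.50 to -2.07), 24 h (-3.11 to -2.53) and 48 h (-2.74 to -2.20), and Skint4 in all 10 at 6 h. The labels number every animal individually and do not pair animals across groups. A replicate block by an animal's place in its group was tried after seeing the data: libraries of the same place deviated together at 24 h (mean r = 0.29, over 0.1 in 41 of 50 pairs) and 72 h (mean r = 0.34, 42 of 50), and less at the other times (mean r 0.05 to 0.15). Before 96 h, animals of the same place also shared the title ending, so no separate ending term could be fitted beside the block. Place and title ending cannot be told apart at those times. With this block, counts at 40 mJ/cm2 were 6 at 6 h, 3 at 24 h, 1 at 48 h and 1 at 72 h, slope counts were 3 at 6 h and 1 at 72 h, and no other count of doses or slopes moved. Skint7 at 72 h was then called, with -3.36 (adjusted p = 0.00746), and Skint1 at 48 h was not, with -1 (adjusted p = 0.053). Skint2 had the fewest counts, with a median of 20 per library.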

Other observations

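Among all tested genes with a symbol, those whose pattern over the 30 group means was most like the mean of the Skint genes were Serpinb7, a serine protease inhibitor gene (Pearson r = 0.921), Fmo5, a flavin monooxygenase gene (r = 0.9), Mrgprb9-ps (r = 0.898), Mrgprb2, a receptor gene of mast cells (r = 0.893), Clca2 (r = 0.889), Znrf2 (r = 0.879), Skint11 (r = 0.877) and Mrgprb11-ps (r = 0.87). The points share dose and time groups, so these values are descriptions. The group means also include the 2 libraries under 1 M counts, in which several members had no counts. At 40 mJ/cm2, Mrgprb2 was called at 6 h, with a log2 fold change of -1.50, and Fmo5 at 24 h (-0.80) and 48 h (-0.74). Serpinb7 had -1.17 at 6 h and -1.32 at 72 h and was not called at any time. Within the family, Skint6 (r = 0.941) and Skint5 (r = 0.939) followed the mean most closely, and Skint7 (r = 0.727) and Skint3 (r = 0.715) least. Each member is itself part of that mean, and Skint5 and Skint6 share reads, so the r of members cannot be set against those of other genes.

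Of the other lists examined at 40 mJ/cm2, edgeR called none of 6 adipocyte and none of 7 hair shaft markers at any time, with an unadjusted p under 0.05 in at most 2 of either list at a time before 96 h, and in 6 adipocyte and 3 hair shaft markers at 96 h. The fibroblast collagens Col1a1 and Col1a2 were called lower at 48 h, among 8 markers. Of 6 sebaceous gland markers, Scd3 and Mc5r were called lower at 24 and 48 h and Scd3 at 72 h, and Awat1 was called higher at 6 h. Of all genes, 1.26% were called lower at 24 h, 3.76% at 48 h and 0.22% at 72 h, and the share called higher at 6 h is not given here.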
